A study of Mus musculus with 20 samples.

Results

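The comparison described here is the difference in transcript level between naive CD4 T cells with the highest and the lowest surface CD5, averaged with equal weight over cells lysed directly after sorting (fresh) and cells rested in culture. It uses 16 of the 20 libraries of the study, in 4 groups of 4, and the 4 regulatory T cell (Treg) libraries were not used. All groups came from mice of the C57BL/6 strain, 8 to 12 weeks old, whose spleen and lymph nodes were taken, and which carry a Foxp3-GFP reporter that marks Treg with green fluorescence, and per the labels each group pooled males and females. Cells were gated as TCRb+, CD4+, CD8-, Foxp3-GFP- and CD44-low, without surface markers of B cells (B220), NK cells (NK1.1), granulocytes (Ly6G), dendritic cells (CD11c) and macrophages (CD11b and F4/80) and without the activation antigen CD69, and the 15% with the lowest CD5 (CD5lo) or the 15% with the highest CD5 (CD5hi) were taken. The fresh CD5lo and fresh CD5hi groups had no culture. The rested CD5lo and rested CD5hi groups were kept for 22 hours with interleukin 7 (IL-7) at 10 ng/mL, so all rested cells share exposure to that cytokine. A cell type field of the CD5hi libraries names CD5lo cells, and groups were taken from the titles, with which the Cd5 transcript went in all 16 libraries.

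CD5 is a surface receptor that damps signalling by the T cell receptor (TCR). Its level on a naive T cell is set in the thymus and tuned in the periphery by how strongly the TCR engages self-peptide on MHC, so CD5hi and CD5lo naive cells are widely used as cells of stronger and weaker self-reactivity. Sorted naive cells rested alone lack the cells that present self-peptide on MHC class II, and IL-7, a survival cytokine of naive T cells, keeps them alive.

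Total counts ran from 38211406 to 64477566 per library. All levels below are CPM, the reads of a gene per unit of library size after TMM scaling, the 4 values of a group are in the order of replicates 1 to 4, and a mean level is given ± SD (n = 4). Differences are log2 fold changes of CD5hi over CD5lo, given ± the standard error of the fit, and a gene is called at a Benjamini-Hochberg adjusted p under 0.05 in edgeR's quasi-likelihood test over all genes tested. The comparison was defined within the 8 numbered pairs. CD5lo and CD5hi libraries of the same state and number varied together, more clearly when fresh. When rested, the libraries of pair 4 correlated at 0.21 after group means were removed, and libraries of different numbers at up to 0.34. The CD4 T cell markers Cd3e, Cd3g, Cd4, Lck, Lef1, Ccr7 and Il7r each had at least 203 CPM in all 16 libraries. The 8 fresh libraries held 361 to 398 CPM of Y-linked transcripts and at most 0.711 CPM of Xist. Rested pairs 1, 2 and 4 held 741 to 1156 CPM of Xist and at most 0.0875 CPM of Y-linked transcripts, and rested pair 3 held 321 to 328 CPM of Y-linked transcripts. No fresh library thus held Xist in quantity, which goes against the labelled pooling of males and females. Both libraries of a pair matched, so each within-pair difference is of libraries alike in these reads, while the average combines pairs of both kinds. Where the fresh and the rested difference are set against each other, only rested pair 3 shares the Y-linked reads of the fresh pairs. Rested CD5hi replicate 4 stood apart in transcripts of ribosomal proteins: 30 of them summed to 39841 CPM there and to 46699, 48458 and 52145 CPM in the other 3 rested CD5hi libraries.

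Of 12797 genes tested, 3900 (30.5%) were called in the average difference. Of these, 1972 were higher in CD5hi cells (15.4%) and 1928 were lower (15.1%), and with library totals in place of TMM scaling the split was 2594 higher and 1328 lower. Most differences were small, with a median of 1.16-fold among the calls. The 364 called genes that differed by at least 2-fold were mostly higher in CD5hi cells, 287 against 77. In 2258 of the called genes (57.9%), the difference had the same sign in all 8 pairs, against 2367 of all 12797 tested genes. The call was made on these same pairs and favours such genes. The CD5hi and CD5lo libraries did not overlap in either state for 792 called genes (6.19% of those tested), 438 of them higher and 354 lower.

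The 2 states gave the same sign for 3808 of the 3900 called genes. These genes were called on the mean of both differences, which favours equal signs, so the count is a description. Another 25 genes were called in both states in opposite directions, 1 of which was called in the average. Taken alone, the fresh difference was called for 2806 genes (21.9%), 1525 higher (11.9%) and 1281 lower (10.0%). The rested difference was called for 2372 (18.5%), 1157 higher (9.04%) and 1215 lower (9.49%). A set of 1465 genes (11.4% of those tested) was called in the average and in the same direction in each state, 749 higher and 716 lower. A further 1061 were called when fresh but not when rested, 695 when rested but not when fresh, and 678 in the average alone, where 8 pairs were read together. These last genes included some of the most abundant transcripts of the cells. Tmsb4x, encoding the actin-binding thymosin beta 4, had an average difference of 0.20 ± 0.05, and the lipid kinase gene Dgka one of -0.11 ± 0.03. Their calls were lost without the pairing. That of Dgka was also lost with library totals in place of TMM and with the Treg libraries in the fit. Across all tested genes the fresh and the rested difference, which share no library, had a Pearson r of 0.65, and of 0.79 over the 10450 genes with a mean of at least 1 CPM in every group. Genes are not independent replicates, and this r is a description.

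**Figure D1:**
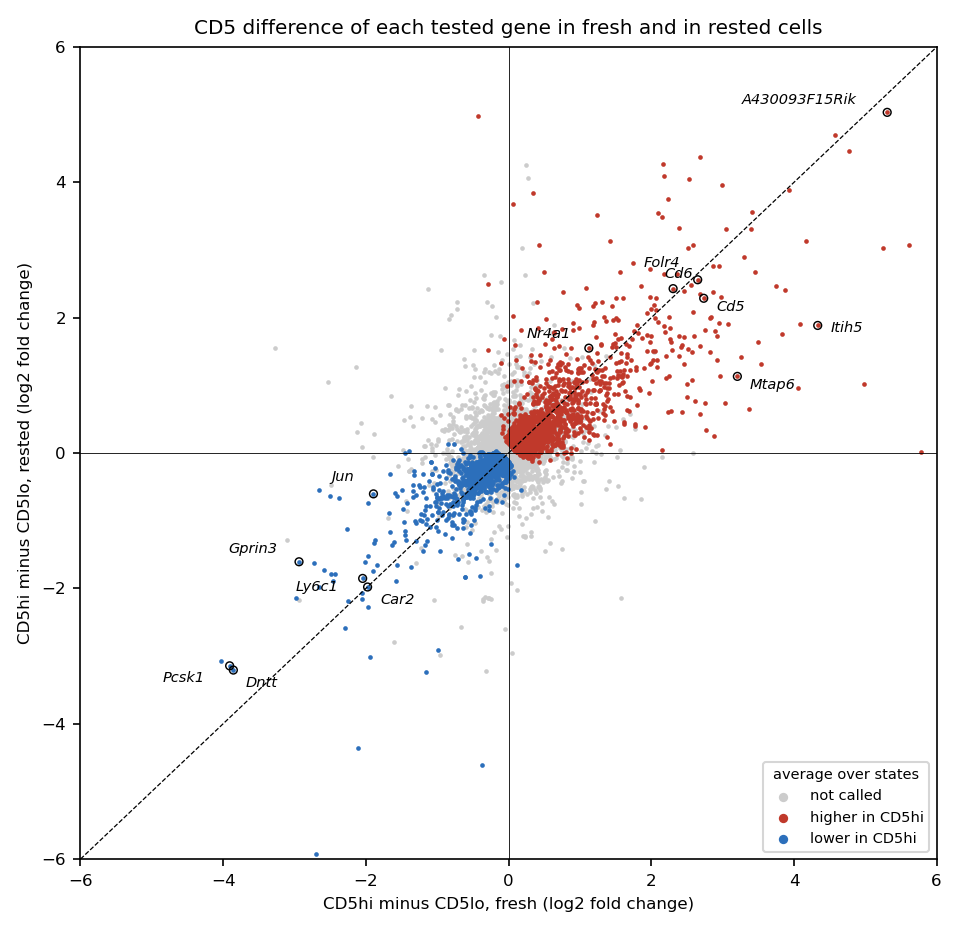
Each point is 1 of 12796 tested genes (1 gene lies outside the axes), with its CD5hi minus CD5lo log2 fold change in fresh cells on the x axis and in rested cells on the y axis, coloured by its call in the average; the dashed line marks equal differences. Cd5, Cd6, Folr4, Car2 and A430093F15Rik lie near the line, while Itih5, Mtap6, Gprin3 and Jun lie nearer to 0 on the rested axis than on the fresh axis.

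The sort was traced first by its own markers. Cd5 had 142, 155, 133 and 151 CPM in fresh CD5lo cells and 965, 976, 890 and 1039 CPM in fresh CD5hi cells. After resting it had 86.7, 87.2, 97.2 and 99.3 CPM in CD5lo cells and 449, 446, 479 and 432 CPM in CD5hi cells. Each CD5hi library was thus well above every CD5lo library of either state. The average difference was 2.51 ± 0.03 (edgeR adjusted p = 3.1e-17), 2.74 when fresh and 2.29 when rested. The rested difference was smaller by 0.45 ± 0.06 (edgeR adjusted p = 0.00048), with pair values of 2.66 to 2.78 when fresh and 2.12 to 2.37 when rested. Rested pair 3, the one with Y-linked reads like the fresh pairs, had 2.30. Cd4, the coreceptor, and Cd44, an adhesion receptor used to gate naive cells, were lower in CD5hi cells. Cd4 differed by -0.28 ± 0.02 and Cd44 by -0.54 ± 0.04, both in 8 of 8 pairs and without overlap in either state. Foxp3, the transcription factor of Treg, was gated out as protein reporter and had 20.6 to 30.2 CPM over the 16 libraries. It differed by 0.20 ± 0.04, higher in 8 of 8 pairs, and this call was lost over the 5 pairs with Y-linked reads (0.091). Cd69, an early activation antigen also gated out, was not called (0.03 ± 0.07).

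The strongest difference of any abundant transcript lay beside Cd5 itself. A430093F15Rik, a noncoding transcript that RefSeq and GENCODE place between Cd5 and its paralogue Cd6, had 1.48, 1.87, 0.829 and 1.91 CPM in fresh CD5lo cells and 65.0, 62.7, 50.8 and 62.0 CPM in fresh CD5hi cells. After resting it had 0.362, 0.311, 0.218 and 0.331 CPM in CD5lo cells and 10.2, 8.54, 10.9 and 11.2 CPM in CD5hi cells. The difference averaged 5.17 ± 0.13 (edgeR adjusted p = 2.6e-15), or 36.0-fold, with 5.31 when fresh and 5.03 when rested. It was singled out after its values were seen, since predicted genes were outside the naming rule. Cd6 encodes a surface receptor of the same scavenger family as CD5. It had 197, 213, 178 and 206 CPM in fresh CD5lo, 997, 1007, 903 and 1017 CPM in fresh CD5hi, 90.0, 88.3, 96.5 and 92.6 CPM in rested CD5lo and 477, 472, 548 and 484 CPM in rested CD5hi cells. Its libraries did not overlap, and its difference of 2.37 ± 0.02 had the smallest adjusted p among the named genes (edgeR, 7.4e-18). Unlike that of Cd5, the difference of Cd6 was not called as changed between states: it was 2.31 when fresh and 2.43 when rested, and the 95% interval of the change ran from 0.02 to 0.23. Vps37c, a sorting gene on the other side of Cd5, was higher by 0.49 ± 0.04. In GENCODE vM21, A430093F15Rik lies on the opposite strand to Cd5 and Cd6 and overlaps neither, but the annotation behind the counts is not given in the sources used here, and the kit did not mark strand.

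The 250 bases before the annotated start are shown for 3 of the genes that were higher: Cd5 as the sorted receptor, Folr4 for a difference that was nearly even between states, and Itih5 for the one that shrank most. They are from RefSeq (GRCm38.p6), while the counts were made on mm9. Cd5 is at chr19:10738975-10739224 on the minus strand, Folr4 at chr9:14903768-14904017 on the minus strand and Itih5 at chr2:10153293-10153542 on the plus strand. Capitals mark matches, on either strand, to CAGGTG (E proteins or ZEB) in Cd5 and Folr4 and to GTGGGCG (EGR) in Itih5.
Cd5: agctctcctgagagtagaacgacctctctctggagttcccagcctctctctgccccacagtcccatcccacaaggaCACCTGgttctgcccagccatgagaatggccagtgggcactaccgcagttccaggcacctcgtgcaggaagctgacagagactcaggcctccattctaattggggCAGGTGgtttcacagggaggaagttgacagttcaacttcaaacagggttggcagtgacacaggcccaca
Folr4: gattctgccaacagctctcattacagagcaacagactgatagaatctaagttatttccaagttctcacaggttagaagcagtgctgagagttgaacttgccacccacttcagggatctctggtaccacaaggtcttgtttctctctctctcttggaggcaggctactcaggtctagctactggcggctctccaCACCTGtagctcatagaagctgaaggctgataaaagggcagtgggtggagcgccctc
Itih5: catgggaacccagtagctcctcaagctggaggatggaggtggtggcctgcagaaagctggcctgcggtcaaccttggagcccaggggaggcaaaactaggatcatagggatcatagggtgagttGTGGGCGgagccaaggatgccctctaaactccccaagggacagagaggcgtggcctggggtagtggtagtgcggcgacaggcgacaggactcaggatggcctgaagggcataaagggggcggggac
The CAGGTG matches begin 174 and 69 bases before the start of Cd5 and 57 bases before that of Folr4, and the EGR match begins 126 bases before that of Itih5. Of the 24 genes with the largest differences, 12 in each direction, 18 had a promoter entry, 9 higher and 9 lower. CAGGTG was found in 17.2% of all 32851 promoter windows of this length, in 2 of the 9 higher genes and in 2 of the 9 lower genes. GTGGGCG was found in 7.02% of the windows and in 1 of 9 in either direction. TGANTCA (AP-1), present in 6.75% of the windows, matched 1 of 9 higher genes and none of the lower ones, and GGAAAA (NFAT), present in 20.4%, matched 3 and 2. AAGGTCA (NR4A, 4.08%) and TGTGGTT (RUNX, 4.40%) matched none of the 18, and GTAAACA (FOXO, 3.17%) matched 1 lower gene. No 2 matches overlap in the 3 sequences shown, and a match is a run of letters that was not tested for binding.

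The 12 largest increases among well-measured genes with no overlap between libraries in either state ran from 2.17 to 3.36. Besides Cd5 and Cd6 they hold receptors and regulators of T cells, genes of cytoskeletal signalling and genes with no settled role in T cells. Chn2, encoding a GTPase-activating protein for Rac, had 2.32, 2.89, 2.93 and 2.58 CPM in fresh CD5lo and 27.2, 30.1, 27.0 and 28.7 CPM in fresh CD5hi cells. After resting its values were 0.765, 1.16, 0.436 and 0.678 against 8.13, 6.27, 7.91 and 7.91 CPM. The level was lower after rest in both CD5 groups, and the difference was 3.40 when fresh and 3.31 when rested (average 3.36 ± 0.12, edgeR adjusted p = 1.3e-12). Within the Chn2 locus, 9130019P16Rik, a transcript of the opposite strand whose span overlaps Chn2, was higher by 3.65 ± 0.35. Only spans were compared, not exons. In sequence that both share, reads of that transcript and of Chn2 cannot be told apart without strand.

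Folr4 (also Izumo1r) encodes folate receptor 4, a surface marker of Treg and of anergic CD4 cells. It had 36.7, 37.7, 31.4 and 34.6 CPM in fresh CD5lo cells and 217, 223, 220 and 221 CPM in fresh CD5hi cells, then 12.6, 10.9, 10.4 and 11.8 CPM and 73.8, 67.3, 73.0 and 57.6 CPM in the rested groups. Its level was lower after rest in CD5lo and in CD5hi cells, and its difference stood at 2.65 before and 2.56 after (average 2.61 ± 0.04, edgeR adjusted p = 2.3e-15). Gpr83, the next gene along the chromosome and another Treg-associated surface receptor, was higher by 1.62 ± 0.04, and Panx1 on the far side by 0.24 ± 0.03. Nt5e encodes CD73, an ectoenzyme that makes adenosine. It had 5.04, 9.47, 8.00 and 6.25 CPM in fresh and 41.2, 46.5, 37.9 and 46.2 CPM in rested CD5lo cells, and CD5hi cells stood above at 37.5, 45.8, 43.9 and 45.2 CPM when fresh and 130, 140, 142 and 158 CPM when rested. Fresh CD5hi and rested CD5lo cells thus held similar levels of Nt5e, while its average CD5 difference was 2.17 ± 0.06. Tnfrsf9, encoding the costimulatory receptor 4-1BB, was higher by 2.41 ± 0.10 at levels of at most 12.1 CPM.

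The other large increases went with different courses of the level after rest. Lysmd2 had 1.87 to 2.14 CPM in fresh CD5lo, 9.96 to 11.5 CPM in fresh CD5hi, 1.60 to 2.59 CPM in rested CD5lo and 9.76 to 13.5 CPM in rested CD5hi cells. It thus kept both its levels and its difference (2.42 ± 0.07, with 2.46 when fresh and 2.39 when rested). Phactr2, a regulator of phosphatase and actin, had lower levels after rest, with 1.28 to 1.71 against 11.6 to 15.9 CPM when fresh and at most 0.745 against at least 3.16 CPM when rested (3.10 ± 0.10). Coro2a, a coronin, had higher ones, with 0.384 to 1.39 against 5.92 to 10.96 CPM when fresh and 2.13 to 3.44 against 15.8 to 18.6 CPM when rested (3.06 ± 0.10). Acvr1c, the activin receptor ALK7, was almost absent when fresh, with 0.0669 to 0.191 CPM in CD5lo and 0.705 to 0.907 CPM in CD5hi cells. After resting it had 6.44 to 11.3 CPM in CD5lo and 27.7 to 37.5 CPM in CD5hi cells, and the average difference was 2.42 ± 0.24. Mtap6 (also Map6), a microtubule stabiliser, appeared in the same manner, at 0.0698 to 0.347 against 1.49 to 1.82 CPM when fresh and 26.4 to 38.0 against 58.3 to 80.1 CPM when rested (2.17 ± 0.15, and 1.33 with 1 CD5 term for both states). For these low fresh levels a fold rests on few counts.

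**Figure D2:**
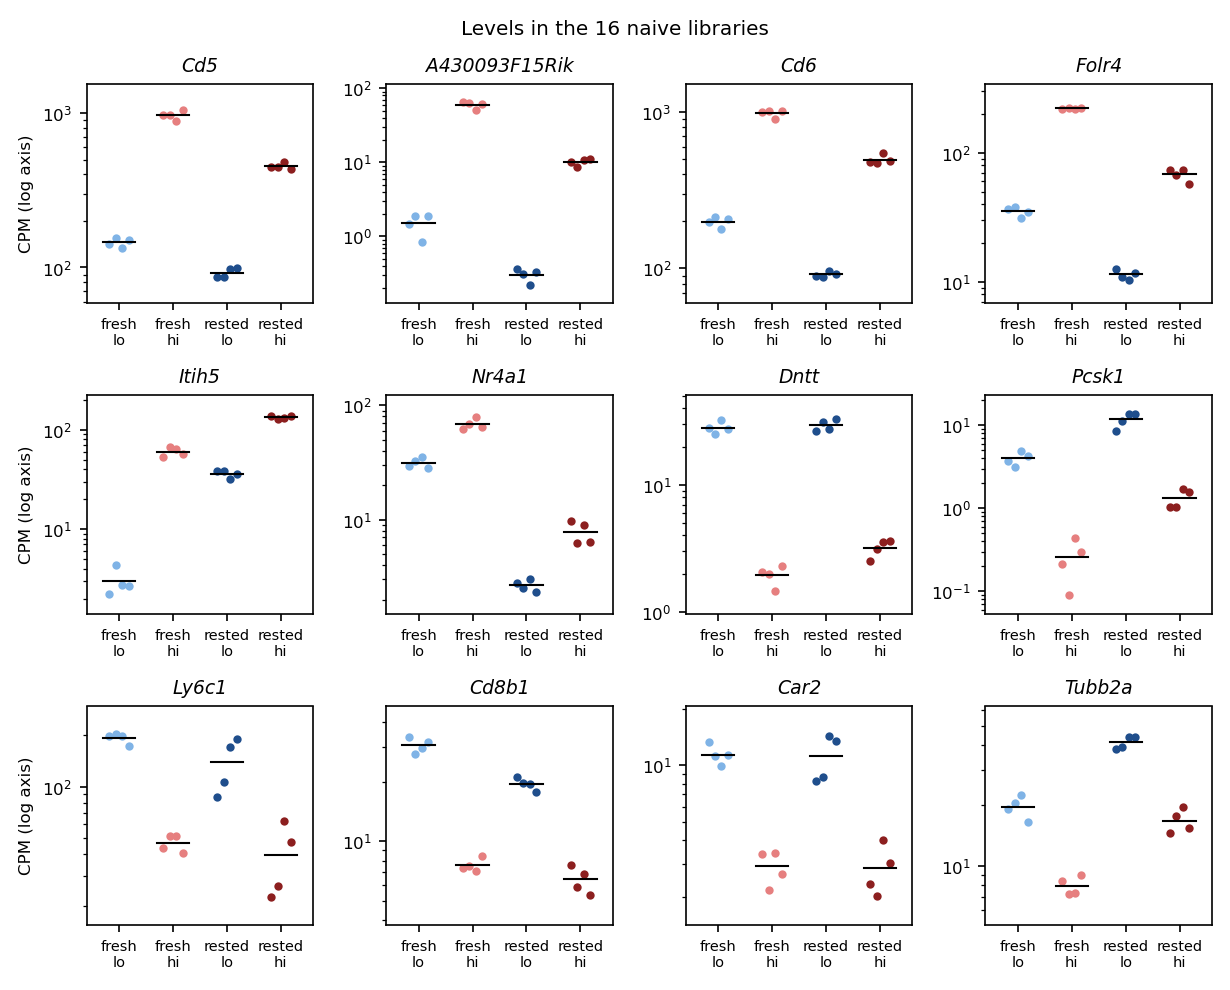
Levels in CPM, on a log axis, of 12 transcripts in each of the 16 libraries, with fresh CD5lo, fresh CD5hi, rested CD5lo and rested CD5hi cells from left to right, points for single libraries and a black line at each group mean. In every panel the CD5hi points lie clear of the CD5lo points of the same state; the CD5lo levels of Dntt are alike in fresh and rested cells, whereas Nr4a1 and A430093F15Rik are lower after rest in both CD5 groups.

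Among the 12 largest decreases, Dntt, encoding the terminal transferase that adds bases to receptor gene joints in thymocytes, led. It had 27.9, 25.3, 32.1 and 27.6 CPM in fresh CD5lo cells and 2.06, 1.98, 1.46 and 2.30 CPM in fresh CD5hi cells, with 26.4, 31.4, 27.4 and 33.2 CPM and 2.54, 3.13, 3.56 and 3.59 CPM after resting. CD5lo cells thus held similar levels in both states, and the average difference was -3.53 ± 0.08 (edgeR adjusted p = 2.8e-14). Pcsk1, a prohormone convertase, had 3.71, 3.11, 4.84 and 4.21 CPM against 0.212, 0.0889, 0.436 and 0.295 CPM when fresh and 8.55, 11.3, 13.6 and 13.5 CPM against 1.04, 1.02, 1.69 and 1.57 CPM when rested. Its level was higher after rest in both groups, and the difference averaged -3.53 ± 0.13. Slc16a5, a monocarboxylate transporter family member, went the other way. It had 159 to 183 CPM in fresh CD5lo and 37.9 to 42.6 CPM in fresh CD5hi cells, and 4.07 to 7.85 and 1.03 to 1.93 CPM after rest. At these far lower levels the difference was -2.06 when fresh and -2.16 when rested.

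Ly6c1, a surface antigen of the Ly6 family carried by part of the naive CD4 pool, had 197, 203, 197 and 174 CPM in fresh CD5lo cells and 43.6, 51.3, 51.3 and 41.0 CPM in fresh CD5hi cells. After resting it had 86.7, 107, 171 and 190 CPM in CD5lo cells and 22.4, 26.0, 62.6 and 47.2 CPM in CD5hi cells. Rested replicates 1 and 2 were low and 3 and 4 high in both CD5 groups, and the average difference within pairs was -1.95 ± 0.05 (edgeR adjusted p = 4.3e-13). Car2, a carbonic anhydrase, showed the same grouping of rested replicates, with 8.21, 8.67, 14.4 and 13.5 CPM in CD5lo and 2.33, 2.03, 4.02 and 3.02 CPM in CD5hi cells. Its difference was -1.98 in either state. Gprin3 differed by -2.27 ± 0.07, Abhd15 by -1.73 ± 0.08, Pdlim4, a LIM-domain protein of the actin cytoskeleton, by -1.58 ± 0.04, Lass6 (also Cers6), a ceramide synthase, by -1.32 ± 0.05 and Tubb2a, a beta tubulin, by -1.30 ± 0.07. Kif23, a kinesin of cytokinesis, differed by -1.61 ± 0.07, against the direction of the cell cycle genes described below. Tubb2a and Ly6c1 have near-identical copies, Tubb2b and Ly6c2, between which the counting could split reads. Tubb2b was lower too (-0.74), while Ly6c2, at most 1.97 CPM, was not called.

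Cd8b1, the CD8 beta chain, was lower by -1.81 ± 0.05 in cells gated as CD8-. It had 33.5, 27.7, 29.6 and 31.7 CPM in fresh CD5lo, 7.33, 7.54, 7.10 and 8.41 CPM in fresh CD5hi, 21.0, 19.8, 19.4 and 17.6 CPM in rested CD5lo and 7.62, 5.86, 6.86 and 5.40 CPM in rested CD5hi cells. Its partner Cd8a stayed at or below 1.31 CPM in all 16 libraries and differed by -0.81 ± 0.21. Of 9 tested markers of CD8, NK and gamma-delta T cells, 7 were lower, 1 higher and 1 not called (median -0.87, against -0.0025 over all tested genes), and of the 4 with at least 1 CPM in 4 libraries all were lower. Their summed level was 86.5 to 94.1 CPM in fresh CD5lo, 37.4 to 40.5 CPM in fresh CD5hi, 47.3 to 55.1 CPM in rested CD5lo and 21.1 to 25.4 CPM in rested CD5hi cells. Most of that sum was Cd8b1, Prf1 and Klrd1. Prf1, encoding the pore-forming protein of cytotoxic granules, had 36.2 to 44.5 CPM in fresh CD5lo and 19.3 to 21.3 CPM in fresh CD5hi cells and differed by -0.99 ± 0.04. Klrd1, the NK receptor chain CD94, differed by -0.90 ± 0.07. Gzma, a cytotoxic granzyme, had at least 0.803 CPM in fresh CD5lo and at most 0.255 CPM in fresh CD5hi cells and had no count in any of the 4 rested CD5hi libraries. The part of other cells in these and other differences was not tested, and in bulk samples fewer cells of a type and less RNA per cell cannot be told apart.

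The change of a difference between states could be bounded for many genes. Of the 1465 genes called in both states, 1085 had a 95% interval of the change between states that lay within 0.5 of 0 on the log2 scale. That limit is wider than the median size of a called difference, 0.21, so for small differences it does not show evenness. Of the genes that differed by at least 2-fold, 230 were called in both states, and 29 of these lay within the limit. The most even genes of at least 2-fold were Tubb2a, Acsbg1, Car2, Rnf144a, Slc4a8 and Gpr83. Tubb2a differed by -1.30 in either state, with an interval of the change from -0.29 to 0.29. Its level was 16.5 to 22.5 CPM in fresh CD5lo, 7.18 to 8.94 CPM in fresh CD5hi, 38.2 to 43.8 CPM in rested CD5lo and 14.5 to 19.7 CPM in rested CD5hi cells. The even difference thus went with levels that were higher after rest. Rnf144a, a ubiquitin ligase, went the other way, with 27.2 to 33.1 and 74.9 to 87.5 CPM when fresh and 8.98 to 16.3 and 28.9 to 37.1 CPM when rested, and differed by 1.43 and 1.42. Acsbg1, an acyl-CoA synthetase, differed by 1.22 in either state, and Slc4a8, a bicarbonate transporter, by 1.21 when fresh and 1.25 when rested. Pair values of these 6 genes kept their sign in 8 of 8 pairs, which their choice among genes without overlap in either state fixed in advance.

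**Figure D3:**
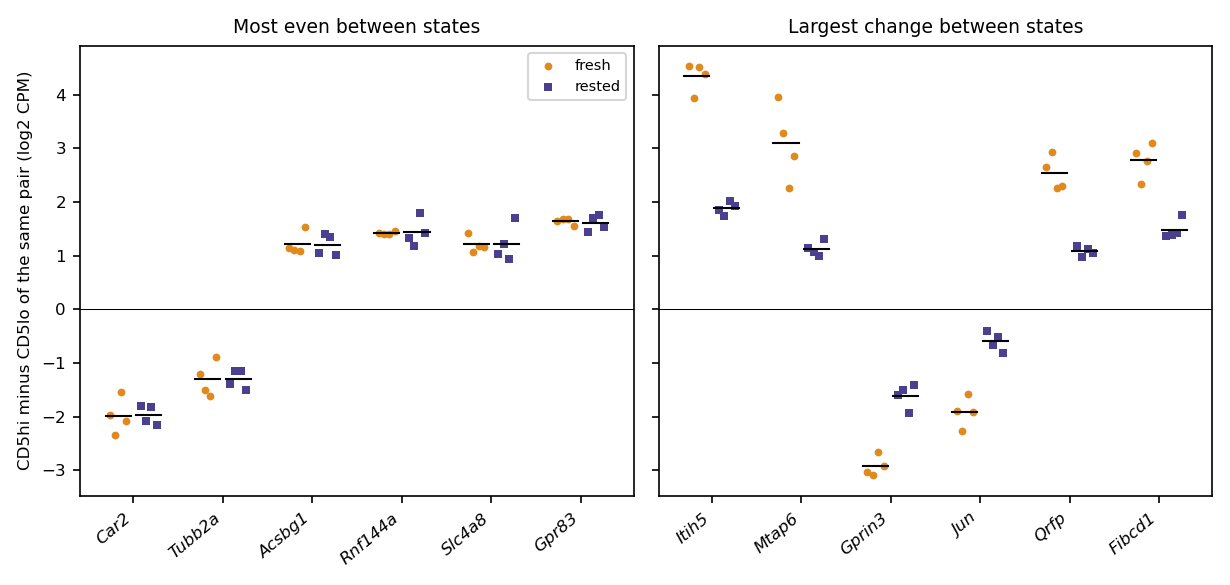
CD5hi minus CD5lo difference in log2 CPM within each of the 8 numbered pairs, fresh as circles and rested as squares with a black line at each mean, for the 6 most even genes (left) and the 6 named for the largest change between states (right). On the left the circles and squares of a gene overlap, and on the right they do not: Itih5 has 3.94 to 4.54 when fresh and 1.74 to 2.02 when rested.

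A change of the CD5 difference between states was called for 354 genes (2.77%), 284 of which were among the 3900. Among the genes called in both states 148 had a called change, and in 132 of these the rested difference was the smaller. Of the 364 genes that differed by at least 2-fold, 225 had a smaller difference when rested, and the median size was 1.62 when fresh and 1.47 when rested. The count of changed genes moved with single pairs. It was 824 without rested replicate 4, 235, 220, 204 and 213 without fresh replicates 1 to 4, and 230 without rested replicate 2, and it was 42 without the pairing. Over the pairs with Y-linked reads, where rested pair 3 stands alone and is assumed to vary like the fresh pairs, 444 genes were called. That fit shares its libraries with the fit over all pairs, and 186 of the 354 genes were called in it in the same direction. Itih5, encoding a heavy chain of the inter-alpha-trypsin inhibitors of the extracellular matrix, had the largest called change among genes of at least 10 CPM. It had 2.23, 4.37, 2.74 and 2.68 CPM in fresh CD5lo, 52.6, 67.7, 63.8 and 57.0 CPM in fresh CD5hi, 38.2, 38.1, 32.0 and 36.1 CPM in rested CD5lo and 138, 128, 130 and 137 CPM in rested CD5hi cells. The level was higher after rest in both groups, and the difference went from 4.33 to 1.89, a change of -2.45 ± 0.11 (edgeR adjusted p = 7.2e-09). Rested pair 3 gave 2.02. Mtap6 changed by -2.07 ± 0.29, Qrfp, a neuropeptide gene, by -1.49 ± 0.15 and Fibcd1, a membrane lectin, by -1.33 ± 0.19, all from a larger to a smaller increase. Gprin3 and Jun were lower in CD5hi cells and became less so, by 1.33 ± 0.13 and 1.29 ± 0.13. Itih5 and these 5 genes were picked for their change with rested pair 3 in the fit. The part of the sex-linked reads in the changes between states was not tested.

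The signalling genes around the TCR are given next by role, as counts of list members called, beside 15.4% higher and 15.1% lower over all tested genes. Those shares belong to the paired fit with TMM, and the alternatives have their own. Of all 12797 genes, 1181 were higher and 980 lower without the pairing, and 2594 and 1328 with library totals in place of TMM. Of 12888 genes tested without rested replicate 4, 2343 were higher and 2422 lower. Genes that the TCR induces were mostly higher in CD5hi cells: 19 of 31 tested were higher and 4 lower, with a median of 0.23, and without the pairing 15 were higher and 2 lower. Nr4a1, an orphan receptor used as a reporter of TCR signals, had 29.5, 32.4, 35.1 and 28.5 CPM in fresh CD5lo, 61.9, 68.7, 78.7 and 64.7 CPM in fresh CD5hi, 2.78, 2.51, 3.03 and 2.32 CPM in rested CD5lo and 9.74, 6.27, 8.995 and 6.38 CPM in rested CD5hi cells. The transcript was far lower in both groups after rest, and the CD5hi libraries still lay above, with 1.13 when fresh and 1.55 when rested (average 1.34 ± 0.05, edgeR adjusted p = 5.7e-12). The difference was larger when rested by 0.42 ± 0.09. Nr4a3 was also lower after rest and higher in CD5hi cells of either state. It had 5.20 to 6.55 against 9.81 to 12.3 CPM when fresh and 1.03 to 1.77 against 2.75 to 3.45 CPM when rested (0.93 ± 0.08). Cd200, a surface ligand of inhibitory receptors on myeloid cells, differed by 2.03 ± 0.07, with 2.17 when fresh and 1.88 when rested.

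The 3 EGR transcription factors, also induced by the TCR, were called higher when fresh and not when rested. Egr1 had 59.9 to 67.2 CPM in fresh CD5lo and 101 to 114 CPM in fresh CD5hi cells, and 6.92 to 15.0 and 9.69 to 15.8 CPM after rest. Its difference was 0.77 when fresh and 0.22 when rested, where it was not called (change -0.54 ± 0.12, edgeR adjusted p = 0.017). Egr2 averaged 0.65 ± 0.14 and was called when fresh (0.68) but not when rested (0.62), where it held 0.241 to 2.15 CPM. Egr3 was called when fresh (0.62) and not in the average (0.13 ± 0.17). Subunits of AP-1, the dimeric factor that TCR and stress signals activate, went in different directions. Jun had 29.1, 18.5, 31.1 and 39.6 CPM in fresh CD5lo, 7.75, 3.78, 10.4 and 10.4 CPM in fresh CD5hi, 14.5, 15.9, 21.7 and 21.8 CPM in rested CD5lo and 11.01, 9.99, 15.1 and 12.4 CPM in rested CD5hi cells. Jun was thus lower in CD5hi cells in 8 of 8 pairs (-1.25 ± 0.06), and Junb was lower as well (-0.27 ± 0.04). Fos (0.26 ± 0.06), Fosl2 (0.65) and Fosb (0.84 ± 0.19) were higher, the last at no more than 1.95 CPM and with a call lost when 1 CD5 term was fitted to both states. Il2ra, the high-affinity chain of the IL-2 receptor, and Irf4 were lower, by -0.56 ± 0.06 and -0.27 ± 0.06.

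Inhibitors of TCR signalling were higher for 18 of 28 tested members and lower for 4 (median 0.22), with 1 lower without the pairing and 2 with library totals in place of TMM or with the Treg libraries in the fit. Cd5, which set the sort, is in this list. Pdcd1, the checkpoint receptor PD-1, had 1.15 to 2.23 CPM in fresh CD5lo, 6.77 to 8.89 CPM in fresh CD5hi, 0.133 to 0.604 CPM in rested CD5lo and 2.27 to 3.60 CPM in rested CD5hi cells. The CD5hi libraries of each state lay above the CD5lo libraries, and the difference was 2.50 ± 0.18. Ubash3b, a phosphatase that dampens receptor-proximal kinases, differed by 1.13 ± 0.03, Lag3, a checkpoint receptor, by 1.18 ± 0.21 and Tigit by 1.26 ± 0.34 at no more than 0.616 CPM. Moderate increases were seen for the phosphatase Ptpn6 (0.33 ± 0.03), the ubiquitin ligase Cblb (0.28 ± 0.03) and the lipid kinase Dgkz (0.20 ± 0.03). Sit1, an adaptor that recruits a phosphatase, went the other way (-0.53 ± 0.04), without overlap in either state. In the ERK pathway, 5 of 12 feedback genes were higher and 2 lower (median 0.046). Spry1, an ERK inhibitor, had 0.424 to 0.468 CPM in fresh CD5lo and 1.59 to 2.03 CPM in fresh CD5hi cells and differed by 1.66 ± 0.11. The phosphatase genes Dusp4 (1.69 ± 0.28) and Dusp6 (0.31 ± 0.06) were higher, and Dusp1 was lower (-0.27 ± 0.04).

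Differences in the components that carry the signal from the TCR were small. Of 25 tested genes of the proximal pathway, 9 were lower and 4 higher, with a median of -0.023. With library totals in place of TMM 6 were lower and 7 higher, with a median of 0.0090 against 0.029 over all tested genes. Without the pairing 6 were lower and 2 higher. The largest difference was in Grap2, the adaptor GADS, with 565 to 607 CPM in fresh CD5lo and 375 to 393 CPM in fresh CD5hi cells (average -0.45 ± 0.03). The TCR zeta chain Cd247 (-0.28 ± 0.03), the adaptor Lat (-0.18 ± 0.02) and the kinase Lck (-0.13 ± 0.02) were lower, and Malt1 (0.36 ± 0.03) and the kinase Fyn (0.20 ± 0.02) were higher. Calcium and NFAT genes were higher for 8 of 19 and lower for 4 (median 0.054). Their higher calls fell to 3 without the pairing, 5, 4 and 5 without fresh replicates 1, 2 and 3, 5 without rested replicate 2 and 5 with the Treg libraries in the fit. Among them the calcium channel genes Itpr1 (0.19 ± 0.03) and Itpr2 (-0.23 ± 0.02) went in opposite directions, and Itpr2 did so without overlap in either state.

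**Figure D4:**
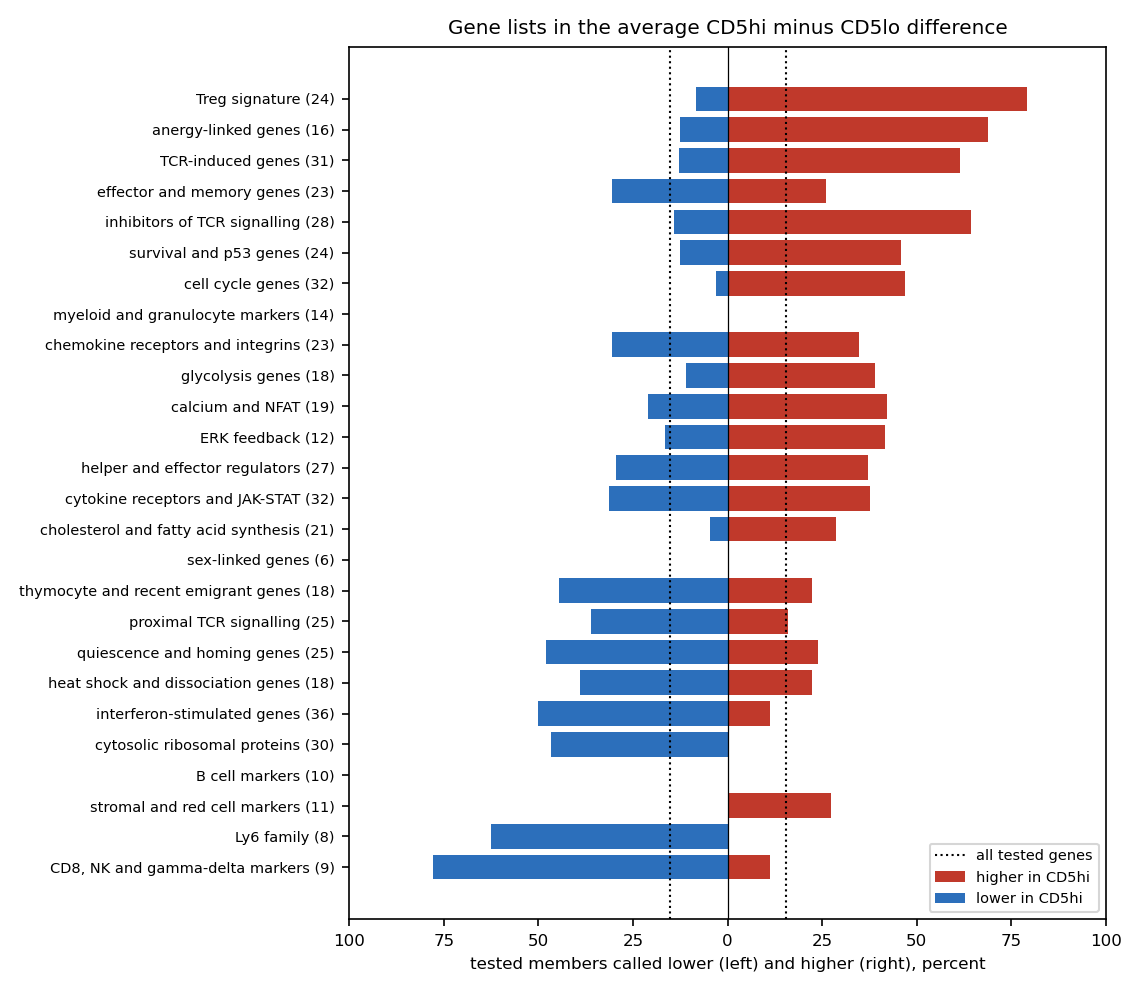
Percent of the tested members of each of 26 gene lists (number tested in brackets) called higher (red, right) or lower (blue, left) in CD5hi cells in the average difference, ordered by the list's median; dotted lines mark 15.4% and 15.1% of all tested genes. The Treg signature, anergy-linked genes, inhibitors of TCR signalling and TCR-induced genes reach furthest to the right, and the markers of CD8, NK and gamma-delta cells and the Ly6 family furthest to the left.

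Genes known from Treg were higher for 19 of 24 tested members and lower for 2, with a median of 1.06. Among the 19 members with at least 1 CPM in 4 libraries, 15 were higher and 2 lower, with a median of 0.66. Over the pairs with Y-linked reads the median was 0.78. Ikzf2, the transcription factor Helios, had 1.21 to 2.22 CPM in fresh CD5lo, 8.85 to 10.1 CPM in fresh CD5hi, 1.33 to 2.48 CPM in rested CD5lo and 4.12 to 5.73 CPM in rested CD5hi cells. Its average difference was 1.89 ± 0.12, and it was smaller when rested by 1.14 ± 0.23. Il2rb, a signalling chain of the IL-2 and IL-15 receptors, differed by 1.82 ± 0.05 and Swap70 by 1.39 ± 0.06. Ctla4, a checkpoint receptor, was higher when fresh (0.88, at 1.66 to 4.14 CPM) and level when rested (0.07, at 27.2 to 36.7 CPM), with a called change of -0.81. Folr4, Tnfrsf9, Nt5e and Gpr83, given above, are also in this list, whereas Il2ra and Prdm1 (-0.55 ± 0.05) were lower. Beside these, Foxp3 itself differed by 0.20. Anergy-linked genes were higher for 11 of 16 and lower for 2 (median 0.28), with 4 lower without rested replicate 4. Apart from Folr4, Nt5e and Lag3, the strongest was Ndrg1, with 7.92 to 10.1 CPM against 26.7 to 30.9 CPM when fresh and 35.4 to 41.3 CPM against 63.2 to 73.8 CPM when rested (1.25 ± 0.04). Its rested difference was the smaller by 0.82 ± 0.08.

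Transcription factors of helper and effector fate went both ways, with 10 of 27 higher and 8 lower (median 0.034). Eomes, a T-box factor of cytotoxic and memory cells, had 0.655 to 1.25 CPM in fresh CD5lo and 4.43 to 6.24 CPM in fresh CD5hi cells and differed by 1.99 ± 0.16. Id2, an antagonist of E proteins, had 12.0 to 17.1 CPM and 51.9 to 63.1 CPM when fresh and 38.7 to 59.1 CPM and 104 to 148 CPM when rested (1.65 ± 0.05). The related Id3 (0.65 ± 0.05), Maf (0.65 ± 0.10), Bcl6, the factor of follicular helper cells (0.40 ± 0.04), and Tox (0.38 ± 0.04) were higher too, the last also counted below among thymocyte genes. Rora (-0.56 ± 0.08) was lower. Of 23 effector and memory genes, 6 were higher and 7 lower (median 0.22), with 5 and 3 without the pairing, 9 and 3 of 26 over the pairs with Y-linked reads and 11 and 6 of 24 without rested replicate 4. P2rx7, an ATP-gated channel, had 10.5 to 15.2 CPM against 43.5 to 61.1 CPM when fresh and 0.805 to 1.36 CPM against 2.91 to 5.85 CPM when rested. It differed by 2.06 and 2.11 in the 2 states, at levels that were far lower after rest. Ahnak, a large scaffold protein of effector cells, was higher by 1.04 ± 0.05.

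Receptors for cytokines and their JAK-STAT partners were higher for 12 of 32 and lower for 10 (median 0.026), and 6 were lower without the pairing, with library totals in place of TMM and without fresh replicate 2. Il10ra, a chain of the IL-10 receptor, had 14.9 to 16.7 CPM against 29.0 to 33.7 CPM when fresh and 111 to 129 CPM against 144 to 156 CPM when rested (0.67 ± 0.03). Cish, a feedback inhibitor induced by STAT5, differed by 0.57 ± 0.05, and Socs3, the inhibitor of IL-6 family signals, by -0.57 ± 0.03. Ifngr1, a chain of the interferon gamma receptor, was lower by -0.29 ± 0.03. Il7r, the receptor for the cytokine of the culture, was higher when fresh (0.31) and level when rested (0.02), for an average of 0.17 ± 0.03. Chemokine receptors and integrins were higher for 8 of 23 and lower for 7 (median 0.092), with 4 lower without the pairing. Ccr4, a receptor of memory and skin-homing cells, and Ccr8 were higher by 1.71 ± 0.20 and 2.16 ± 0.33, at no more than 2.76 and 3.29 CPM, and over the pairs with Y-linked reads Ccr8 differed by 4.82. Ccr9, the gut-homing receptor, was lower by -0.80 ± 0.07. Of 25 genes of quiescence and homing 12 were lower and 6 higher (median -0.047), with 7 lower and 3 higher without the pairing. Ccr7, which guides cells into lymph nodes, was lower by -0.21 ± 0.02 and the metabolic brake Txnip by -0.32 ± 0.03, both without overlap in either state.

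Genes of thymocytes and recent emigrants were lower for 8 of 18 and higher for 4 (median 0.0016). Dntt, Cd8b1, Ccr9, Themis (-0.31), Bcl11b (-0.22) and Tcf7 (-0.14 ± 0.03) were among the lower ones, while Sox4 (0.86 ± 0.05) and Tox were higher. Members of the list thus did not move together. In the Ly6 family, surface proteins of which several are induced by interferon, 5 of 8 tested members were lower and the other 3 were not called (median -0.57), with 3 lower over the pairs with Y-linked reads. Ly6a had 147 to 174 CPM against 92.1 to 118 CPM when fresh and 37.3 to 54.6 CPM against 18.7 to 27.9 CPM when rested (-0.81 ± 0.04). Ly6e had 893 to 978 CPM against 607 to 652 CPM and 551 to 606 CPM against 291 to 363 CPM (-0.70 ± 0.03), and both differences were larger when rested. Interferon-stimulated genes were lower for 18 of 36 and higher for 4 (median -0.079), with 11 lower and none higher without the pairing. Only 1 was higher in limma voom and without fresh replicate 2, and 2 were higher over the pairs with Y-linked reads, with the Treg libraries in the fit and without fresh replicates 1 and 3 or rested replicate 1. The lower ones were led by interferon gamma-induced GTPases. Iigp1 had 88.3, 108, 116 and 82.4 CPM in fresh CD5lo, 47.7, 58.1, 55.9 and 40.1 CPM in fresh CD5hi, 38.9, 39.6, 78.6 and 86.1 CPM in rested CD5lo and 14.4, 13.7, 33.0 and 28.5 CPM in rested CD5hi cells. As for Ly6c1, rested replicates 3 and 4 were the higher ones in both CD5 groups, and the difference within pairs was -1.21 ± 0.04. Igtp (-0.68 ± 0.02), Irgm2 (-0.62 ± 0.03) and Gbp3 (-0.47 ± 0.06) followed, while Rsad2 (0.37 ± 0.12) and Oas3 (0.14 ± 0.04), both known best as targets of type I interferon, were higher in the paired fit.

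Cell cycle genes were higher for 15 of 32 and lower for 1, with a median of 0.10. Mki67, the proliferation antigen, had 4.69 to 6.14 CPM in fresh CD5lo, 7.02 to 10.2 CPM in fresh CD5hi, 1.84 to 4.11 CPM in rested CD5lo and 6.42 to 9.20 CPM in rested CD5hi cells (1.14 ± 0.09). Top2a, a topoisomerase of dividing cells, had 7.77 to 8.39, 13.7 to 19.5, 3.80 to 4.88 and 8.46 to 9.95 CPM in the same order (0.99 ± 0.06). Neither overlapped between CD5 groups, and both levels were low. The mitotic kinase Cdk1 had at most 1.42 CPM (0.90 ± 0.17), and the licensing genes Mcm3 (0.15) and Mcm5 (0.11) were higher by little. Genes of survival and the p53 response were higher for 11 of 24 and lower for 3 (median 0.11), with 1 lower without the pairing. Bcl2, which blocks apoptosis, was higher by 0.42 ± 0.03, mainly when fresh (129 to 206 CPM against 236 to 300 CPM) and less when rested (1190 to 1318 CPM against 1350 to 1440 CPM). Bbc3, the proapoptotic PUMA, was higher as well (0.99 ± 0.06).

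Metabolic genes differed little. Cholesterol and fatty acid genes were higher for 6 of 21 and lower for 1 (median 0.026), with 2 higher without the pairing, 10 with library totals in place of TMM and 9 without rested replicate 4. Glycolysis genes were higher for 7 of 18 and lower for 2 (median 0.059), with 4 higher without the pairing and without fresh replicate 2, fresh replicate 4 or rested replicate 1. Slc16a3, a lactate exporter, was the largest at 1.31 ± 0.14. Of 30 cytosolic ribosomal protein genes, 14 were lower and 16 were not called (median -0.10). With each state taken alone, none was called when fresh (median -0.062) and 11 were lower when rested (median -0.16). Rplp1 had 2369, 2190, 2098 and 2172 CPM in fresh CD5lo, 1864, 1935, 1838 and 1905 CPM in fresh CD5hi, 2070, 2024, 2430 and 2423 CPM in rested CD5lo and 1736, 1919, 2357 and 1427 CPM in rested CD5hi cells (-0.25 ± 0.06). The groups overlapped when rested, and the lowest value was that of rested CD5hi replicate 4. Without that replicate 15 were lower with a median of -0.064, over the pairs with Y-linked reads 8 were lower and 1 higher (median -0.035), and 6 were lower without the pairing, 8 without fresh replicate 1 and 8 with the Treg libraries in the fit. Heat shock and dissociation genes were lower for 7 of 18 and higher for 4 (median -0.065), with 2 and 2 without the pairing and 4 lower and 2 higher with the Treg libraries in the fit.

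Markers of cells outside the gate were low. B cell markers summed to 6.09 to 15.4 CPM and myeloid and granulocyte markers to 34.6 to 52.9 CPM over the 16 libraries. In edgeR none of 10 tested B cell markers and none of 14 myeloid markers was called, with 3 and 2 at an unadjusted p under 0.05, and DESeq2 and limma called none. With the Treg libraries in the fit 1 B cell marker was higher and 1 lower. Without fresh replicate 1, fresh replicate 3 or rested replicate 3, 1 B cell marker was lower. Without rested replicate 4, 2 myeloid markers were higher. Stromal and red cell markers were higher for 3 of 11 (Pecam1, Cdh5 and Col1a1), of which Pecam1, also carried by naive T cells, made up most of a sum of 270.2 to 350.4 CPM, and none of the 3 was called over the pairs with Y-linked reads. Without rested replicate 3, 4 were higher and 5 lower (median -0.73), and without rested replicate 2 only 1 was higher. None of 6 sex-linked genes was called by any of the 3 tools, nor at an unadjusted p under 0.05 in edgeR. The 2 libraries of each pair matched in these reads and the fit had 1 term per pair, so such a call was hardly possible. Even so, 1 was called higher without fresh replicate 3 and 1 lower without rested replicate 4. The 24 largest differences had the same direction in the 4 fresh pairs, in the 3 rested pairs with Xist and in rested pair 3. They were named for having no overlap in either state, which fixed this outcome, so it is no check across the sex-linked reads. Of the 364 genes that differed by at least 2-fold, 362 kept their direction in the fresh pairs. All of the 273 tested did so in the rested pairs with Xist, and 332 did so in rested pair 3 alone. The 364 were called on the average of these same pairs, so the counts are a description.

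The calls of neighbouring genes were compared next. Of 12797 tested genes 12685 (99.1%) were found in RefSeq, which gave 12664 pairs of neighbours along a chromosome. Both members were called in 1379 of these pairs, where 30.5% of all tested genes were called, and an excess of such pairs was not tested. Of the 1379 pairs with both called, 930 (67.4%) differed in the same direction and 449 in opposite directions. Among the 1247 such pairs whose spans do not overlap, 812 (65.1%) had the same direction. Of the 48 neighbours of the 24 largest differences 27 were called, against 30.5% of all tested genes, and 23 of them in the direction of the gene they adjoin. A430093F15Rik is counted for both Cd5 and Cd6. Besides those of Cd5, Cd6, Folr4 and Chn2, these include related genes (Ly6a beside Ly6c1, Cd8a beside Cd8b1 and Tubb2b beside Tubb2a) and unrelated ones such as Fuca2 beside Phactr2 (0.67) and P4ha2 beside Pdlim4 (-0.82). Armc7, beside Slc16a5, differed by -0.38.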

How the data were processed

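The authors deposited a table of raw read counts for 22068 gene symbols in 20 libraries of polyadenylated RNA (paired reads of 50 bases). Per the submitters' processing notes, mm9, edgeR, Subread, featureCounts 1.4.5 and TopHat2 2.0.11 were used, with no roles stated. Neither annotation nor strand setting is given in the sources used here. Of the counts from 2 to 11, 70.6 to 73.9% per library were even, so fragments were largely counted once per mate and counting error is understated. The deposited CPM table was not used.

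The 16 naive libraries were fitted with edgeR 4.0.16 in R 4.3.3 (quasi-likelihood, TMM, default filter on the 4 groups), with 1 term per pair and a CD5 effect per state, which leaves 6 residual degrees of freedom. The average is the mean of both effects. Standard errors are Wald errors of that fit. Pairing rests on the replicate numbers: after removing group means, same-numbered CD5lo and CD5hi libraries correlated at 0.19 to 0.37 when fresh and 0.21 to 0.57 when rested, and other pairs at -0.20 to 0.075 and -0.51 to 0.34. The labels do not say whether replicates are separate animals, so p-values measure the spread between these samples. The script was tested on simulated data.

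The members and lists were chosen with earlier results of these data known. Named genes are the sort markers, the 12 largest increases and 12 largest decreases without overlap in either state and with at least 10 CPM in 1 group (predicted genes and receptor segments left out), up to 4 called members per list with at least 1 CPM, and 6 genes each that were most even, most changed between states, or most abundant among those called in the average alone. Others were named after their values were seen. Some members of the lists are not reported here by name. Alternatives were no pairing, Treg libraries included, 1 CD5 term, DESeq2 1.42.0 and its size factors, library totals, limma 3.58.1 voom, 2 other filters, pairs with Y-linked reads only, and each pair left out. Neighbours come from RefSeq and overlaps from GENCODE vM21.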

Additional observations from a re-analysis of the deposited data

Results flagged for a closer look

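In the sort markers and the genes with the largest differences, 5 of 112 groups of 4 libraries had 1 library far from the other 3, and chance flags about 1 in 20 groups. Rested CD5hi replicate 2 was low in Chn2 (6.27 CPM) and in Tnfrsf9 (1.87 CPM). Rested CD5hi replicate 3 was high in Cd6 (548 CPM) and low in Gprin3 (8.10 CPM). Fresh CD5hi replicate 3 was low in Kif23 (3.49 CPM). None of these values overlapped the CD5lo libraries of the same state, as the rule that named these genes required.

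The CD5 difference itself differed between fresh and rested cells, by the test of the change, in 30 of the genes named by rule. The values that follow are the rested minus the fresh log2 difference. Over the pairs with Y-linked reads, 4 fresh and 1 rested, 21 of the 30 were called in the same direction, and Fosb, Id3, Iigp1, Ikzf2, Kif23, Ly6a, Ly6e, Nr4a1 and Tnfrsf9 kept the direction but were not called. An increase in CD5hi cells was smaller when rested in Itih5 (-2.45), Mtap6 (-2.07), Qrfp (-1.49), Fibcd1 (-1.33), Ikzf2 (-1.14), Nt5e (-0.87), Tnfrsf9 (-0.83), Ndrg1 (-0.82) and Il2rb (-0.77). The same held for Il10ra (-0.69), Bbc3 (-0.69), Id2 (-0.67), Egr1 (-0.54), Id3 (-0.51), Sox4 (-0.49) and Cd5 itself (-0.45). A decrease was smaller when rested in Gprin3 (1.33), Jun (1.29), Dntt (0.65), Pdlim4 (0.58), Kif23 (0.56), Cd8b1 (0.40), Socs3 (0.39), Grap2 (0.30) and Klf6 (0.20). In the other 5 genes the difference was larger when rested. These were increases in Fosb (1.51) and Nr4a1 (0.42), and decreases in Iigp1 (-0.48), Ly6a (-0.37) and Ly6e (-0.32). Among genes named outside the rule, the change was also called for Ctla4 (-0.81), Bcl2 (-0.51), Ubash3b (-0.50), Ptpn6 (-0.32), Il7r (-0.29), Cblb (-0.28), Lef1 (-0.27), Ifngr1 (-0.22) and Il2ra (0.53).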

How the results depend on the processing

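Without the replicate block that pairs the libraries, 2161 genes were called in the average, 1181 higher and 980 lower, 691 in each state alone with the same direction, and 42 changed between states. Of the 3900 genes called with the pairing, 2160 kept call and direction, since the spread shared by a pair then counts as error. The other alternatives over all 8 pairs, and the pairs with Y-linked reads alone, called 3372 to 3922 genes. Leaving out 1 pair gave 3246 to 4765 calls, the most without rested replicate 4, and 204 to 824 genes changed between states. Of 112 named genes, 93 kept direction and call under every alternative. Cd69, not called, turned to -0.020 without rested replicate 1 and -0.021 without rested replicate 3, and was called without rested replicate 4 (0.15) and over the pairs with Y-linked reads (0.16). Calls lost most often were those of Hk2, Pecam1, Rpl5 and Atp2b4. The rested pairs with Xist alone give a rested difference only, and so no average. Transcripts under 1 CPM, such as Nr4a2 and Bub1, rest on few counts.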
